A study of Mus musculus with 6 samples.

Results

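A set of 8 genes of the red cell lineage was followed in hepatic tissue of ARSB-null mice and of controls: Slc4a1, Epb42, Rhag, Rhd and Ermap of the red cell membrane, Alas2 of haem synthesis, Ahsp of globin assembly, and the transcription factor Klf1. The genes were chosen by name, with earlier results of these data known. Each was read from the brightest probe set, by mean over all 6 arrays, among those listing exactly 1 gene symbol. Of the 8 genes, 7 were measured in this way, among 19938 genes in all, and each of the 7 had 1 such probe set. Ahsp had no probe set with 1 symbol and was not analysed here. RNA of hepatic tissue from 3 ARSB-null and 3 control mice was hybridized to 1 array per liver. ARSB (arylsulfatase B) is a lysosomal enzyme that removes sulfate groups from chondroitin 4-sulfate and dermatan sulfate. All 6 mice were 12-week-old males of the C57BL/6J strain that received no treatment. The ARSB-null mice were homozygotes, from a colony bred out of heterozygous animals. The controls were C57BL/6J mice kept under similar conditions and matched for age and sex, and the sources do not state that they were littermates. The sample labels describe death under ketamine and xylazine with cervical dislocation, whereas the methods text describes carbon dioxide. The mice of both groups were numbered 4, 5 and 6.

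Red cells are made in the bone marrow, and in the mouse also in the spleen, while the liver is the main site before birth and contains few red cell precursors in a healthy adult. Circulating red cells have no nucleus, but the youngest of them, the reticulocytes, still carry RNA for globin, for haem synthesis and for membrane proteins. RNA from the blood held in the vessels is therefore part of any liver sample that was not perfused, and the sources used here do not mention perfusion. In such bulk tissue, fewer cells of a type and less RNA per cell cannot be told apart.

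Transcription in red cell precursors depends on GATA1, on Klf1 and on NF-E2, each of which binds short DNA motifs. RefSeq promoter sequences (build GRCm38.p6) were held for 6 of the 8 erythroid genes: Alas2, Epb42, Rhag, Klf1, Rhd and Ermap. The 250 bases before the annotated start of 4 of these genes are shown as examples from haem synthesis (Alas2), the membrane (Epb42 and Rhag) and transcription (Klf1), and their measured differences run from -0.81 to 0.01. They run 5′ to 3′ on the strand of the gene, with motif matches in capitals. The positions are chrX:150547167-150547416 on the plus strand for Alas2, chr2:121036878-121037127 on the minus strand for Epb42, chr17:40810899-40811148 on the plus strand for Rhag and chr8:84901732-84901981 on the plus strand for Klf1.
Alas2: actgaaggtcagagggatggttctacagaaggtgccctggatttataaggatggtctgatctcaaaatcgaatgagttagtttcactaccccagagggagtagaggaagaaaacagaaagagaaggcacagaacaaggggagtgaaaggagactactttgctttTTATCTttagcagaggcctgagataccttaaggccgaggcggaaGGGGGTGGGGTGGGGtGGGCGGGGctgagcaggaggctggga
Epb42: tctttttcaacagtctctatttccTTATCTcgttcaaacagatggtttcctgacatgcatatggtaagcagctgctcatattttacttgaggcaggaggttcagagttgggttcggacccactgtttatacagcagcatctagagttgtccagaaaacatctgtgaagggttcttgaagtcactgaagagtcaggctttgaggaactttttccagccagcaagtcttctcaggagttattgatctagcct
Rhag: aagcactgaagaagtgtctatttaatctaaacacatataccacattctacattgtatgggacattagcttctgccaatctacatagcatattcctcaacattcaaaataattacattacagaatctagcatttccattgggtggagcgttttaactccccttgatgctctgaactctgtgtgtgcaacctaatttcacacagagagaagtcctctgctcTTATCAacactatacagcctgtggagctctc
Klf1: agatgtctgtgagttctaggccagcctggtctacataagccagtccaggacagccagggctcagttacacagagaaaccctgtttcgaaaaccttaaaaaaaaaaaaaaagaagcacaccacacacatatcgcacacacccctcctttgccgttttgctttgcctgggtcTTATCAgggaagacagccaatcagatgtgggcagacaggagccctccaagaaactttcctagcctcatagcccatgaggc
A GATA motif (AGATAA, and the same with T as its first letter, with G as its last letter, or with both, on either strand) was found in 6 of the 6 erythroid promoters and in 26.5% of all 32851 promoters of the same length. Its first base lay 86 bases before the start in Alas2, 226 in Epb42, 31 in Rhag and 80 in Klf1. A CACCC motif (CCNCNCCC, either strand), of the kind Klf1 binds, was found in 1 of the 6, that of Alas2, where 4 matches were found, some of them overlapping, against 45.9% of all promoters. The NF-E2 motif (TGANTCA, either strand) was found in 0 of the 6, against 6.75% of all promoters. The promoters of Alas2 and Klf1, whose differences in the liver lay far apart, thus both held the GATA motif. A match describes letters in this window and no binding was measured.

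The labels were first checked on the gene that was inactivated. The log2 signal of Arsb was 7.63, 7.46 and 7.64 in ARSB-null mice 4, 5 and 6, and 10.21, 10.23 and 10.21 in controls 4, 5 and 6. The difference was -2.64 (SE 0.10), or 6.23-fold lower in the ARSB-null liver (95% interval 5.30 to 7.32; limma, adjusted p = 0.000639). Without both arrays numbered 4 its adjusted p was 0.0534. Over all 35556 probe sets, 5 were lower (0.0141%) and 2 higher (0.00562%) at an adjusted p under 0.05. Signals of hepatocyte genes, the defining markers of the labelled tissue, all lay above the 97.8 percentile of the means of all probe sets. All levels and differences below are log2 signals, on which 1 unit is a 2-fold difference, and a negative difference means a lower signal in the ARSB-null liver.

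The erythroid genes separated into a pair with a lower signal in every ARSB-null mouse, Slc4a1 and Alas2, and a remainder whose groups overlapped. Slc4a1 had a mean signal 2.95-fold lower in the ARSB-null liver and Alas2 one 1.75-fold lower, and in both the difference exceeded the spread between mice. Epb42 and Rhag had lower means by a smaller amount, Rhd a slightly lower mean, and Ermap and Klf1 means that were not lower. Of the 7 genes, 0 passed an adjusted p under 0.05 over all probe sets by limma in either direction. At an unadjusted p under 0.05, 3 of the 7 were lower and 0 higher, beside 3.80% of all genes that were lower and 5.80% that passed in either direction. With the mouse number as a replicate block, 4 of the 7 were lower at that threshold and 0 higher, beside 4.61% of all genes lower and 2.63% higher. The groups did not overlap in 2 of the 7, both lower in the ARSB-null mice, beside 8.32% of all genes without overlap and lower and 4.73% without overlap and higher. Because the genes were chosen with earlier results known, these shares are descriptions and not a test.

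Slc4a1 encodes the anion exchanger of the red cell membrane, which trades chloride for bicarbonate and anchors the membrane to the skeleton beneath it. Its log2 signal was 7.05, 6.42 and 6.59 in ARSB-null mice 4, 5 and 6, and 8.38, 8.53 and 7.84 in controls 4, 5 and 6. The lowest control lay above the highest ARSB-null mouse, mouse 4. The mean was 8.25 ± 0.36 in control liver and 6.69 ± 0.33 in ARSB-null liver (SD, n = 3 each). The difference of -1.56 (95% interval -2.11 to -1.01) had an unadjusted p of 0.000284 and an adjusted p of 0.224 by limma. Between mice of the same number the difference was -1.32, -2.11 and -1.25 for numbers 4, 5 and 6. With any single array left out it stayed between -1.77 and -1.42.

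Alas2 encodes the erythroid form of 5-aminolevulinate synthase, the first and rate-limiting enzyme of haem synthesis in red cell precursors. Its log2 signal was 10.37, 10.32 and 10.02 in ARSB-null mice 4, 5 and 6, and 10.94, 11.18 and 11.01 in controls 4, 5 and 6. The groups did not overlap, and the spread within each was small beside the gap. The mean was 11.04 ± 0.12 in control liver and 10.24 ± 0.19 in ARSB-null liver (SD, n = 3 each), a difference of -0.81 (95% interval -1.12 to -0.49) and a 1.75-fold lower signal (95% interval 1.41 to 2.17). Limma gave an unadjusted p of 0.000499 and an adjusted p of 0.237. Between mice of the same number the difference was -0.57, -0.85 and -0.99, and with any single array left out it stayed between -0.87 and -0.70.

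The calls on Slc4a1 and Alas2 depended on which probe sets were tested. When only the 21789 probe sets with 1 symbol entered the fit, the adjusted p by limma was 0.0208 for Slc4a1 and 0.0407 for Alas2, so that 2 of the 7 erythroid genes passed, beside 0.151% of probe sets lower in that fit. With the replicate block in the same fit, the adjusted p was 0.00878 and 0.0250, and the same 2 genes passed, beside 0.289% of probe sets lower. With the block over all probe sets, the adjusted p was 0.321 and 0.348. With one array left out at a time, the adjusted p ranged from 0.253 to 0.695 for Slc4a1 and from 0.301 to 0.767 for Alas2. The fits on all 6 arrays used the same values, so the size of the difference could not change between them. The call did change. Only leaving out arrays moved the size, within the ranges given above.

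**Figure D1:**
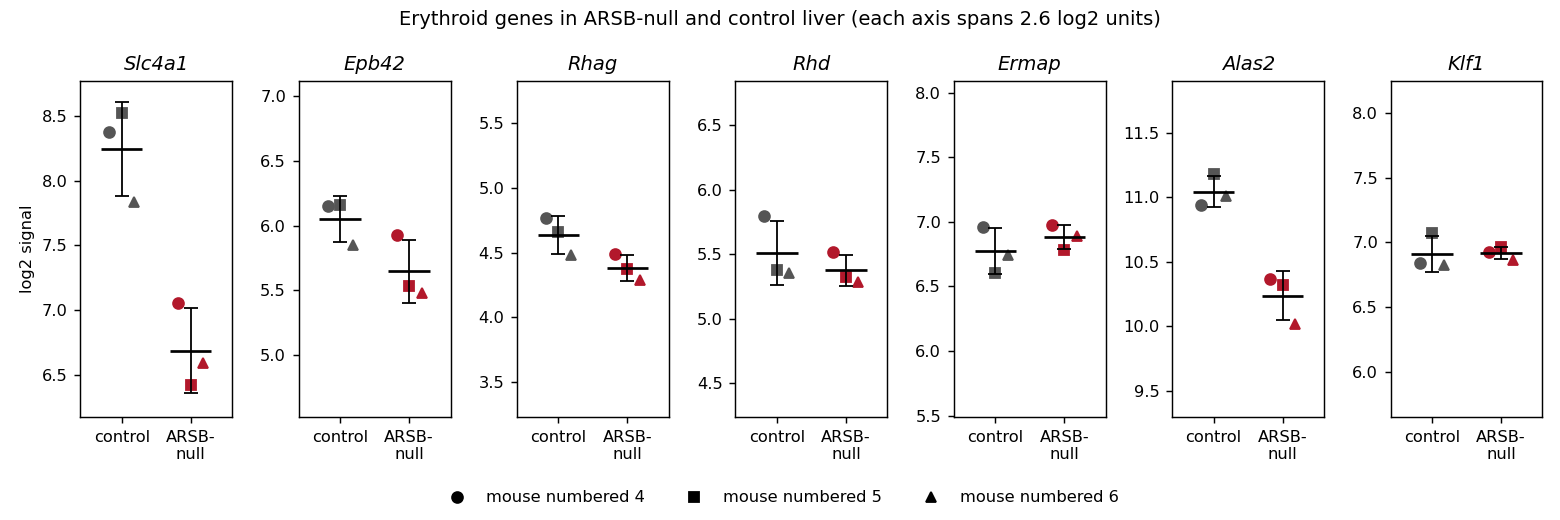
Log2 signal of each of the 7 measured erythroid genes (vertical axis) in the 3 ARSB-null and 3 control livers, with 1 point per mouse, a line at each group's mean and bars of 1 SD. The 3 ARSB-null points lie below the 3 control points for Slc4a1 and Alas2 and overlap them for the other 5 genes.

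Epb42 encodes a protein that ties the anion exchanger to the membrane skeleton. The log2 signal of Epb42 was 5.93, 5.53 and 5.48 in ARSB-null mice 4, 5 and 6, and 6.15, 6.16 and 5.85 in controls 4, 5 and 6. The groups overlapped by 1 pair, ARSB-null mouse 4 above control 6. The difference of -0.41 (95% interval -0.78 to -0.03) had an unadjusted p of 0.0373 and an adjusted p of 0.806 by limma, and remained between -0.55 and -0.32 with single arrays left out.

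Rhag encodes the Rh-associated glycoprotein, a gas and ammonium channel that carries the Rh protein to the membrane. For Rhag the log2 signal was 4.49, 4.37 and 4.29 in ARSB-null mice 4, 5 and 6, and 4.77, 4.66 and 4.48 in controls 4, 5 and 6. Here too, the groups overlapped by ARSB-null mouse 4 and control 6 alone. The difference was -0.25 (95% interval -0.53 to 0.02; limma, unadjusted p = 0.0669, adjusted p = 0.860). The mean signal of Rhag stood at the 13.6 percentile of all probe sets, the dimmest of the 7.

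Rhd encodes the Rh blood group protein itself. Its log2 signal was 5.51, 5.33 and 5.28 in ARSB-null mice 4, 5 and 6, and 5.80, 5.38 and 5.35 in controls 4, 5 and 6. In each group the mouse numbered 4 stood above the other 2, and the other 2 ARSB-null mice stood just below the other 2 controls. The difference of -0.13 (95% interval -0.49 to 0.22; limma, adjusted p = 0.989) rested on control 4, and was 0.01 without it.

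Ermap encodes an erythroid membrane protein of the immunoglobulin superfamily. Signals of Ermap on the log2 scale were 6.97, 6.78 and 6.89 in ARSB-null mice 4, 5 and 6, and 6.96, 6.61 and 6.74 in controls 4, 5 and 6. The groups overlapped, and the difference of 0.11 (95% interval -0.18 to 0.41; limma, adjusted p = 0.989) was the highest of the 7.

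Klf1 encodes the transcription factor that activates adult beta-globin and many other late erythroid genes. Its log2 signal was 6.92, 6.96 and 6.87 in ARSB-null mice 4, 5 and 6, and 6.84, 7.07 and 6.82 in controls 4, 5 and 6. All 3 ARSB-null values lay inside the range of the controls. The difference was 0.01 (95% interval -0.25 to 0.26; limma, adjusted p = 0.998), an interval that leaves room for a signal up to 1.19-fold lower. Its sign was negative in 6 of the 17 alternative fits, among them both that rescaled the arrays.

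The differences therefore ran, from lower to higher, through Slc4a1, Alas2, Epb42, Rhag, Rhd, Klf1 and Ermap. The interval of Slc4a1 overlapped that of Alas2 only between -1.12 and -1.01, while the intervals of Alas2, Epb42, Rhag and Rhd each overlapped that of the next. The median over the 7 was -0.25, beside -0.02 over all 19938 genes, with 5 means lower and 2 higher. Ratios within an array were computed for 3 pairs of genes, with an exact two-sided permutation p of 0.1 for each, the smallest that 3 against 3 allows. The log2 ratio of Slc4a1 to Klf1 was 0.13, -0.55 and -0.28 in ARSB-null mice 4, 5 and 6 and 1.54, 1.45 and 1.01 in controls 4, 5 and 6, a difference of -1.57. The log2 ratio of Alas2 to Klf1 was 3.44, 3.36 and 3.15 against 4.10, 4.10 and 4.19, a difference of -0.81. Neither ratio overlapped between the groups. Klf1 itself differed by 0.01, so these 2 ratios largely repeat the differences of Slc4a1 and Alas2 and are no further support.

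The mice of each group were ordered much alike across the erythroid genes. ARSB-null mouse 4 had the highest signal of its group in 6 of the 7 genes and ARSB-null mouse 6 the lowest in 5. Control 6 had the lowest signal of its group in 5 of the 7, while control 5 had the highest in 4 and control 4 in 3. Such counts were not taken over all genes, so the order cannot be called particular to the erythroid genes. In the fit with array weights, the array numbered 4 had the lowest weight of each group, 0.61 in ARSB-null and 0.31 in control mice. When each gene was standardized over the 6 arrays and averaged over the 7 genes, the mean was 0.09, -0.58 and -0.81 in ARSB-null mice 4, 5 and 6, and 0.87, 0.57 and -0.14 in controls 4, 5 and 6. On this average ARSB-null mouse 4 stood above control 6, so the groups overlapped although those of Slc4a1 and Alas2 did not. Without both arrays numbered 4, 3 of the 7 genes were lower and 0 higher at an unadjusted p under 0.05 by limma, beside 3.60% of all genes lower and 3.25% higher.

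**Figure D2:**
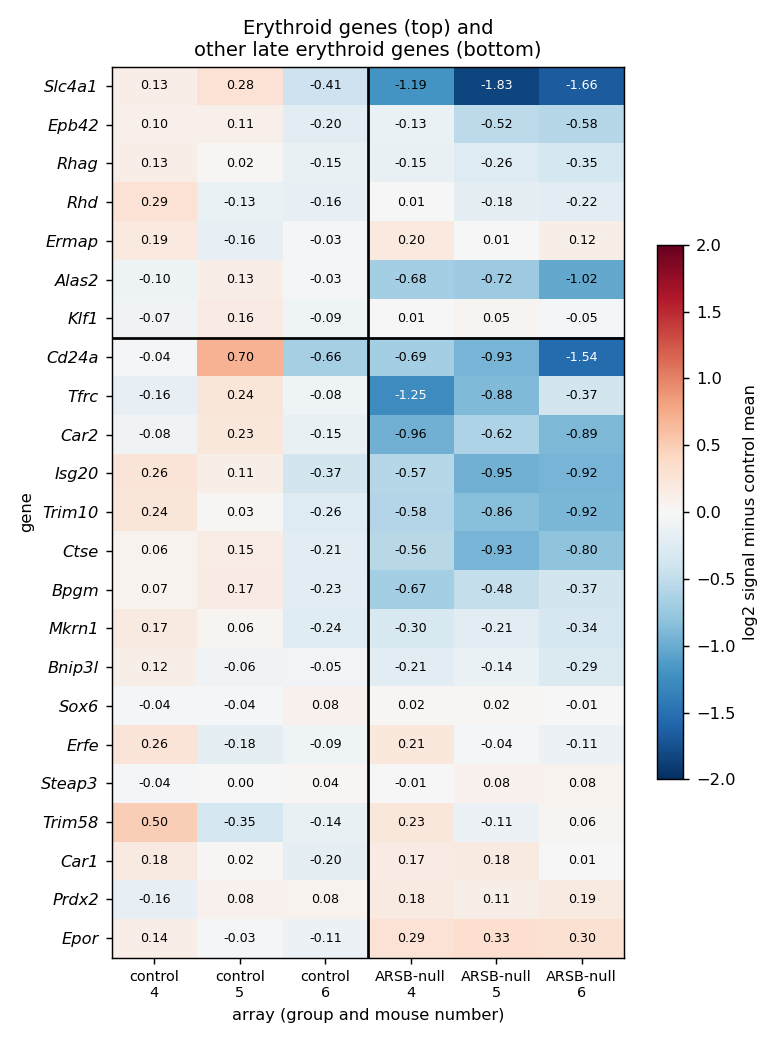
Log2 signal minus the control mean (colour and printed value) of the 7 measured erythroid genes, above the line, and of the other late erythroid genes, below it, in each of the 6 livers (columns). Slc4a1 and Alas2 are below the control mean in all 3 ARSB-null livers, at -1.83 to -1.19 and -1.02 to -0.68, whereas Klf1 stays within 0.16 of it in all 6.

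The wider red cell programme was described from 5 further lists, chosen with earlier results of these data known, with 69 of 81 genes measured. Of these, 10 were lower and 3 higher at an unadjusted p under 0.05 by limma, 0 passed an adjusted p under 0.05, and 15 were lower and 8 higher without overlap. Among all genes 3.80% were lower at the unadjusted threshold, and 8.32% were lower and 4.73% higher without overlap. With the replicate block, 16 of the 69 were lower and 4 higher at the unadjusted threshold, beside 4.61% and 2.63% of all genes. Their median difference was -0.05. Of those 10 lower genes, 7 were on the list of other late erythroid genes, where 7 of 16 were thus lower and 1 higher at the unadjusted threshold, and the median was -0.25. In that list 8 genes were lower and 2 higher without overlap between the groups. Tfrc and Cd24a, both among the 7 lower genes, serve other cells as well, so the list is not confined to late red cell stages.

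Car2, a carbonic anhydrase abundant in red cells, had a log2 signal of 7.48, 7.82 and 7.55 in ARSB-null mice 4, 5 and 6 and of 8.37, 8.67 and 8.29 in controls 4, 5 and 6 (difference -0.82; limma, adjusted p = 0.299). Trim10, a ubiquitin ligase of terminal red cell maturation, had 5.66, 5.38 and 5.33 against 6.48, 6.27 and 5.98 (difference -0.79; adjusted p = 0.378). Ctse, the aspartic protease cathepsin E, had 6.46, 6.09 and 6.21 against 7.08, 7.17 and 6.81 (difference -0.76; adjusted p = 0.356). In these 3 genes, as in Slc4a1, the lowest control was control 6. Isg20, an exonuclease, differed by -0.82 (adjusted p = 0.501) without overlap. Tfrc, the transferrin receptor that brings iron into red cell precursors and other dividing cells, differed by -0.84, Bpgm, which makes the bisphosphoglycerate that lowers the oxygen affinity of haemoglobin, by -0.51, and Cd24a, a surface protein of early red cell precursors and of B cells and neutrophils, by -1.05, each without overlap. With the replicate block among probe sets with 1 symbol, 4 of the 16 (Car2, Ctse, Trim10 and Isg20) passed an adjusted p under 0.05. Epor, the erythropoietin receptor, ran the other way, at 0.31 higher without overlap (unadjusted p = 0.0217, adjusted p = 0.744 by limma). Erfe, the hormone erythroferrone that precursors release, differed by 0.02 with overlap, and its sign turned when the arrays were rescaled. The means of Prdx2 (0.16, without overlap) and Car1 (0.12, with overlap) were also higher. Over the 16 genes of this list, 9 means were lower and 7 higher.

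Among 18 of 21 other genes of the red cell membrane and skeleton, 1 was lower, the tetraspanin Tspan33 (-0.35), and 1 higher, the water channel Aqp1 (0.28), at an unadjusted p under 0.05 by limma, with a median of -0.02. The next in order of p, Tspo2 (-0.40) and Xk (-0.29), did not pass. With the replicate block 4 were lower and 1 higher, and without both arrays numbered 4, 0 were lower and 2 higher. Aqp1 is also abundant in vessel and bile duct lining. With single arrays left out, the difference ranged from -0.53 to -0.23 for Tspo2 and from -0.38 to -0.15 for Xk.

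Of 13 of 15 other genes of haem synthesis, 1 was lower, the mitochondrial iron carrier Slc25a37 (-0.38), and 1 higher, Tmem14c (0.25), which moves porphyrin within mitochondria, at the unadjusted threshold. Slc25a38 (-0.29) and Uros (-0.25) had 3 ARSB-null values below the 3 control values and did not pass. Under the block 3 of the 13 were lower and 1 higher. Alas1, the form of the first enzyme that serves haem synthesis in hepatocytes, had a log2 signal of 11.14, 11.31 and 11.63 in ARSB-null mice 4, 5 and 6 and of 10.76, 11.41 and 11.55 in controls 4, 5 and 6. Its difference of 0.13 (95% interval -0.43 to 0.68) was within the spread of the controls, and its sign turned in 4 of the 17 alternative fits. The log2 ratio of Alas2 to Alas1 was -0.78, -0.98 and -1.61 in ARSB-null mice 4, 5 and 6 and 0.18, -0.23 and -0.53 in controls 4, 5 and 6, a difference of -0.93 without overlap.

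Of 16 erythroid transcription factors and partners, 1 was lower, the cell cycle factor E2f2 (-0.47), and 0 were higher at the unadjusted threshold by limma, and the median was 0.02. Under the block 1 was lower and 1 higher. Gata1, the master regulator of the lineage, had a mean signal 0.27 higher (95% interval -0.01 to 0.54; unadjusted p = 0.0537), with overlap between the groups. Bcl11a differed by -0.23 and Ldb1 by 0.20. The regulators, like Klf1, thus had differences nearer to 0 than Slc4a1 and Alas2. Of 12 globin genes, 6 had a probe set with 1 symbol, all of them embryonic, fetal-type or theta globins, and 0 of the 6 passed in either direction (median -0.13; Hbb-y 0.21, Hbq1b -0.18). The sign of Hbq1a (-0.16) and of Hba-x (-0.17) turned in some alternative fits. The adult alpha and beta globin genes lie on probe sets that list several symbols, so no value is given for them.

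**Figure D3:**
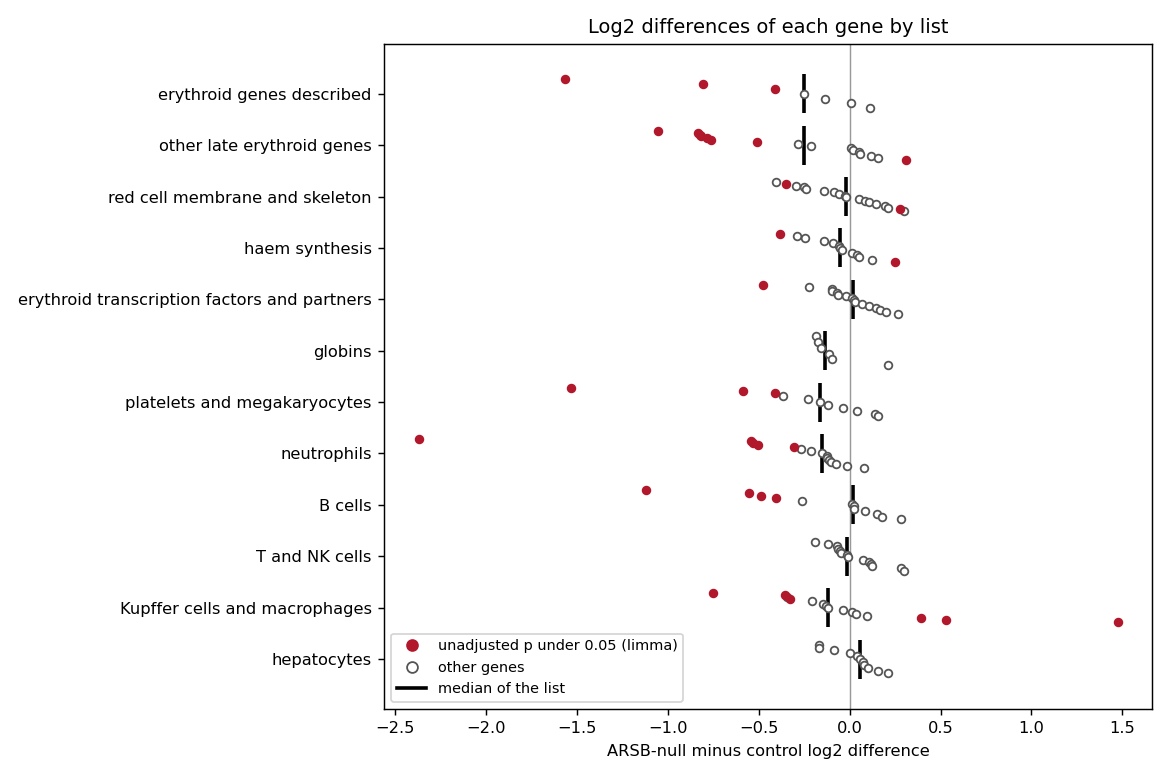
ARSB-null minus control log2 difference of every measured gene (1 point each) by list, with filled points at an unadjusted p under 0.05 by limma and a bar at the median of each list. The erythroid genes described and the other late erythroid genes have a median of -0.25, and the remaining erythroid lists have medians between -0.13 and 0.02.

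Genes of the systems that supply or dispose of red cells were measured in the same livers. Epo, the hormone that drives red cell production, had a low signal that overlapped between the groups (difference 0.13; limma, adjusted p = 0.992), and among 14 genes of erythropoietin and hypoxia 1 was lower (Hif1a, -0.25) at the unadjusted threshold. Hamp, which encodes hepcidin, the liver hormone that limits iron supply, differed by 0.17 with overlap, while 2 of the 12 genes of its axis were higher at an unadjusted p under 0.05, Smad7 (0.71) and Id1 (0.59). With the replicate block among probe sets with 1 symbol, 1 of these 12, Smad7, was higher at an adjusted p under 0.05 (0.0245 by limma). In that fit 41 of all 19938 genes were higher. Among 14 genes of haem and iron recycling, 3 were lower, Cd163 (-0.77), the macrophage receptor for haemoglobin bound to haptoglobin, Slc11a2 (-0.35), an iron transporter, and Hp (-0.29), haptoglobin. The haem oxygenase gene Hmox1 was the 1 that was higher (0.33). Over all probe sets every adjusted p here was above 0.05 by limma. Cd163 passed (0.0442) with the block among probe sets with 1 symbol, beside 0.289% of probe sets lower in that fit. At the unadjusted threshold, 3.80% of all 19938 genes were lower and 398 of them were higher.

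Markers of other blood cells were lower beside the erythroid genes in part. Of 52 measured genes on lists for platelets, neutrophils, B cells and T and NK cells, 12 were lower and 0 higher at an unadjusted p under 0.05 by limma, and 14 were lower and 2 higher without overlap. The shares of all genes are 3.80% lower at the unadjusted threshold, and 8.32% lower and 4.73% higher without overlap. These lists, too, were chosen with earlier results of these data known. Averaged over its list on each array, the log2 signal of platelet genes was 7.13 to 7.30 in ARSB-null and 7.31 to 7.63 in control livers, and that of neutrophil genes 5.77 to 5.90 and 6.07 to 6.30. The same average over the 7 erythroid genes was 6.49 to 6.75 in ARSB-null and 6.87 to 7.12 in control livers. These averages rested in part on single genes, which were left out after their values were seen. Without Ppbp the other 10 platelet genes overlapped, at 7.07 to 7.23 in ARSB-null and 7.17 to 7.43 in control livers. Without Lcn2 the other 14 neutrophil genes did not, at 5.56 to 5.65 and 5.71 to 5.89. Without Slc4a1 the other 6 erythroid genes were barely apart, at 6.47 to 6.70 and 6.71 to 6.91. Alas2 was still among these 6, and each of the remaining erythroid genes overlapped between the groups. B cell genes, at 6.10 to 6.18 and 6.17 to 6.47, overlapped slightly, and T and NK cell genes, at 6.04 to 6.17 and 5.94 to 6.26, overlapped throughout.

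Of 11 platelet genes 3 were lower, Ppbp (-1.53), Gp9 (-0.59) and Tubb1 (-0.41). Over all 11, 8 means were lower and 3 higher, with a median of -0.16. Ppbp, a chemokine of platelet granules, had a log2 signal of 8.02, 7.79 and 7.53 in ARSB-null mice 4, 5 and 6 and of 9.58, 9.63 and 8.72 in controls 4, 5 and 6, which is the order of the mice seen for Slc4a1 within the controls. Of 15 neutrophil genes 5 were lower, among them Ngp (-0.50), Mmp8 (-0.54) and Lcn2 (-2.37), the last of which hepatocytes also make. Ngp and Mmp8 were dim, with means at the 29.9 and 16.6 percentile of all probe sets. Over all 15, 14 means were lower and 1 higher, with a median of -0.15. Of 12 B cell genes 4 were lower at the unadjusted threshold, led by Cd72 (-1.12; limma, adjusted p = 0.0553), and 1 was lower and 1 higher without both arrays numbered 4. Over all 12, however, 5 means were lower and 7 higher, with a median of 0.02. Among probe sets with 1 symbol, Ppbp, Lcn2 and Cd72 passed an adjusted p under 0.05, as Slc4a1 and Alas2 did. Of 14 T and NK cell genes 0 were lower and 0 higher. Without both arrays numbered 4, 10 of the 52 were lower and 2 higher. Of 10 genes of blood progenitors and proliferation 2 were lower, Tyms (-0.29) and Birc5 (-0.27), with a median of -0.27, and 4 were lower with the replicate block. The part of these cells, or of the amount of blood in each sample, in the erythroid differences was not tested.

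Markers of resident liver cells were measured as well. Of 11 hepatocyte genes 0 passed the unadjusted threshold in either direction, and their average lay between 13.4 and 13.5 in both groups. Of 15 Kupffer cell and macrophage genes 3 were lower and 3 higher at the unadjusted threshold by limma, the higher ones being Vcam1 (1.47; adjusted p = 0.0487), Cd68 (0.53) and C1qa (0.39). The lower ones were Folr2 (-0.75; adjusted p = 0.272), a folate receptor of macrophages, Adgre1 (-0.35) and Csf1r (-0.33). Among all 19938 genes 3.80% were lower at that threshold, and 398 genes were higher. Folr2 passed with the replicate block among probe sets with 1 symbol (adjusted p = 0.0206 by limma). Vcam1, an adhesion molecule of macrophages that take up old red cells and of activated vessel lining, was the only gene on the 16 lists past an adjusted p under 0.05 over all probe sets without the block, and it had its 3 ARSB-null values above all controls. Its adjusted p was 0.195 with the replicate block, and with any single array left out 0.0510 to 0.376.

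The genes most like the erythroid genes were sought by Pearson correlation with their standardized average over the 6 arrays, among 414 genes whose signal spanned at least 1 log2 unit. The points share the arrays and their scaling, and the correlations are descriptions over 6 arrays. The 10 with the highest correlation were Cdr2 (0.966), Isg20 (0.960), Trim10 (0.945), Ccl24 (0.927), Ppbp (0.917), Tent5c (0.914), Ctse (0.897), Cyb561 (0.891), Moxd1 (0.890) and Folr2 (0.879). All 10 had 3 ARSB-null values below the 3 control values, and 0 passed an adjusted p under 0.05 by limma over all probe sets. They were picked from these same arrays for likeness to an average that was mostly lower in ARSB-null mice. Lower values were therefore largely built into the choice and are no further support. Among probe sets with 1 symbol 1 of the 10 passed, Ppbp, beside 0.151% of probe sets lower in that fit. With the replicate block there 8 passed, all but Tent5c and Cyb561, beside 0.289% of probe sets lower. The same limit holds for these counts. Cdr2 stood at 7.89, 7.73 and 7.50 in ARSB-null mice 4, 5 and 6 and at 8.52, 8.50 and 7.96 in controls 4, 5 and 6, with ARSB-null mouse 4 the highest of its group and control 6 the lowest of its own, as in the erythroid genes. Of these 10, 3 (Isg20, Trim10 and Ctse) are on the list of other late erythroid genes, while 6 of the 414 genes are on any of the wider erythroid lists. In all, 6 of the 414 genes (1.45%) had a correlation of 0.9 or more.

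**Figure D4:**
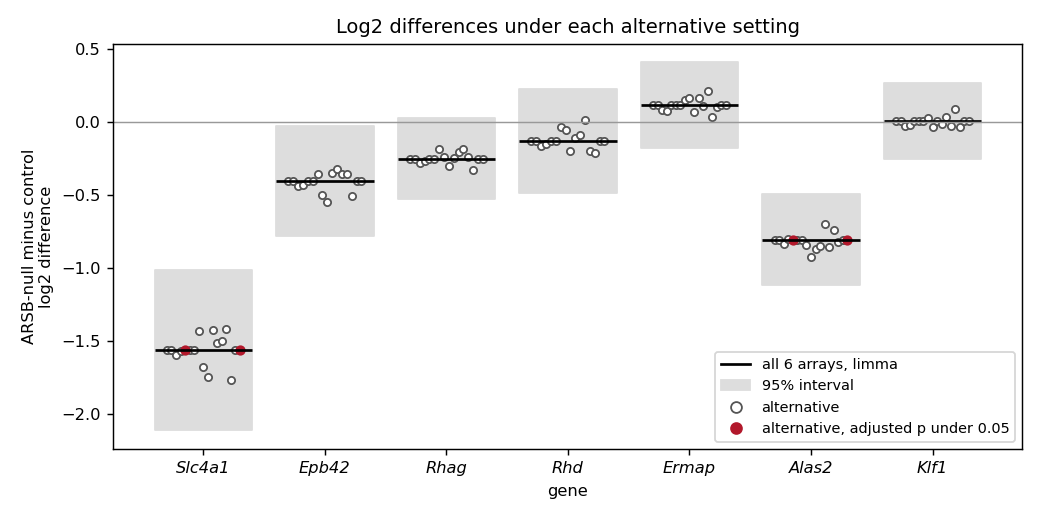
ARSB-null minus control log2 difference of each of the 7 measured erythroid genes under the main fit and the alternatives, which include leaving out each array. Slc4a1 stays between -1.77 and -1.42 and Alas2 between -0.92 and -0.70, whereas the differences of Rhd and Klf1 cross 0.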

How the data were processed

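Hepatic RNA of 6 mice was labeled and hybridized to mouse gene arrays. The authors deposited 1 normalized log2 signal for each probe set on each array, and the submitters' processing notes mention RMA and Partek with no version. Scanner files were not used here, and no detection calls were available, so the number of arrays limits the precision. The methods name a later array generation than the one whose annotation fits the probe set identifiers. Quantile scaling makes the arrays alike, so a difference shared by most genes would not appear.

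Of 35556 probe sets, 21789 listed 1 gene symbol, 1621 listed several and 12146 were not listed. Symbols were checked against RefSeq (GRCm38.p6) and 0 were updated. No coordinates of probe sets are given, since no build is named for the array. Groups were compared by limma 3.58.1 in R 4.3.3 (lmFit, eBayes, two-sided) over all probe sets with Benjamini-Hochberg adjustment, at an adjusted p under 0.05. The tests measure the spread between mice labelled as separate animals. The erythroid genes and the lists were chosen with earlier results of these data known. Alternatives were a replicate block, the methods' one-way analysis of variance, other scalings, filters, priors and weights, the mean over a gene's probe sets, and leaving out arrays. The limma procedure was tested on simulated data. The deviations of mice with the same number correlated at 0.396, 0.159 and 0.193 for numbers 4, 5 and 6, all above 0.1. Between different numbers the correlation ran from -0.32 to 0.22, the highest being that of ARSB-null mouse 6 with control 5. Number 4 alone thus exceeded every pair of different numbers, so the block is weakly grounded for numbers 5 and 6. What the numbers stand for is not stated in the labels. Blocked values are printed beside the results they bear on.

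Genes named are the erythroid genes, Arsb, up to 4 of each list with the smallest unadjusted p, and the 10 most like the erythroid genes, leaving out predicted genes, microRNAs and snoRNAs. Tfrc, Bpgm, Cd24a, Epor, Erfe, Prdx2, Car1, Epo, Alas1, Adgre1 and Csf1r were named after values were seen. Promoter sequences came from RefSeq.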

Additional observations from a re-analysis of the deposited data

How the results depend on the processing

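Over all probe sets, 7 passed an adjusted p under 0.05 by limma (2 higher, 5 lower), and 0 of the 7 erythroid genes did, with 3 at an unadjusted p under 0.05. The count of probe sets was 4 with the replicate block (1 higher, 3 lower), 2 by the one-way analysis of variance, 60 among probe sets with 1 symbol, 106 among these with the replicate block, 12 among probe sets above the median signal, 28 with array weights, 1 without both arrays numbered 4, and 2112 at an unadjusted p under 0.05. With a single array left out it was 4 to 7. The fits on fewer probe sets differed in the number of tests and also in the spread that limma shares over probe sets. Which of these moved the counts was not tested, nor was the cause of the other changes. The count of erythroid genes was 2 among probe sets with 1 symbol, without and with the block, and 0 under every other adjusted alternative. Their median difference of -0.25 was -0.40 among probe sets above the median signal, where 4 of the 7 genes were left, and -0.33 to -0.19 with a single array left out. Of 80 single genes, the value under an alternative kept its direction and call in 1276 cases, lost a call in 12 and gained one in 24, and it changed sign without a call on either side in another 23, for 7 genes. Arrays carry no read depth, and dim probe sets such as that of Rhag have no test against background here.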
